A study of Mus musculus with 4 samples.

Results

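The constant genes of the immunoglobulins were followed in blood leukocytes of leukaemic mice treated with dasatinib, a tyrosine kinase inhibitor. The 10 genes, chosen by symbol from 32287 listed features, were the heavy chain genes Ighm, Ighd, Ighg3, Ighg2b, Ighg2c and Igha, the kappa gene Igkc, and the lambda genes Iglc1, Iglc2 and Iglc3. All mice were immunocompetent C57BL/6J mice aged 10 weeks, inoculated with acute lymphoblastic leukaemia (ALL), and all received dasatinib. Blood was taken 1 week into treatment, when every mouse was in remission, and treatment went on for 4 more weeks. The Relapsed group holds the 6 mice that had relapsed when the outcome was read at day 100 after inoculation, and the Cured group the 6 mice still in remission. Each library holds the frozen and thawed blood cells of 3 mice, sorted as live cells and mixed, so each group has 2 libraries, a mouse cannot be traced within a pool, and the pool is the replicate.

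An antibody consists of paired heavy and light chains, and each chain joins a variable part, assembled from gene segments in the developing B cell, to a constant part. A naive B cell makes IgM and IgD from 1 heavy chain locus by splicing the same variable exon to Ighm or Ighd. Class switching replaces these with a gamma or alpha gene, and plasma cells secrete the product in bulk. A B cell normally uses either a kappa or a lambda light chain, and in mice kappa is by far the more common.

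All 10 gene identifiers in the files were those of GENCODE M21 on GRCm38. The heavy chain genes lie on the minus strand of chromosome 12, in the order of transcription Ighm at chr12:113418558-113422730, Ighd at chr12:113406604-113416324, Ighg3 at chr12:113356224-113361232, Ighg2b at chr12:113302965-113307933, Ighg2c at chr12:113285325-113288932 and Igha at chr12:113254830-113260236. Igkc lies on the plus strand at chr6:70726435-70726966. The lambda genes lie on the minus strand of chromosome 16, with Iglc2 at chr16:19198396-19200351 next to the segments Iglv2 and Iglv3, and Iglc3 at chr16:19065230-19065681 and Iglc1 at chr16:19061618-19062071 next to Iglv1. One annotated Iglc2 transcript starts with an exon at chr16:19200198-19200351 that holds the joining segment Iglj2 and no variable segment.

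The lambda genes are shown by sequence because the assignment of UMIs to them carries several results below. Each line gives 150 coding bases on the minus strand, read from the GENCODE M21 transcripts (GRCm38), at chr16:19061920-19062069 for Iglc1, chr16:19198701-19198850 for Iglc2 and chr16:19065530-19065679 for Iglc3. Capitals mark the bases that differ from Iglc2 in the lines of Iglc1 and Iglc3, and from Iglc3 in the line of Iglc2.
Iglc1: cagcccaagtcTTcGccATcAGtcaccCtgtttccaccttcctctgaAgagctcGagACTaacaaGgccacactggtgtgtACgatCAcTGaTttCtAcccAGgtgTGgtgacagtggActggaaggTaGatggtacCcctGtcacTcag
Iglc2: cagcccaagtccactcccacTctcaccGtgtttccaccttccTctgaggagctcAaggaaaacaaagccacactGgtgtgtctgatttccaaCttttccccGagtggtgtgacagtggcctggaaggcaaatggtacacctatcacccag
Iglc3: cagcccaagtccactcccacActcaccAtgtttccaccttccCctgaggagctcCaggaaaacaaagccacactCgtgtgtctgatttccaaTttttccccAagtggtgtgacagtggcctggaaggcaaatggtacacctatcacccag
Over this stretch Iglc3 differed from Iglc2 at 7 of 150 bases and Iglc1 at 33. Of the 403 stretches of 50 bases in the Iglc3 transcript, 43 occur unchanged in Iglc2, and none of the Iglc1 stretches do. Ighg2c shares 70 of its 1276 such stretches with Ighg2b. How the counting treated reads shared by copies is not given in the sources used here, so the split between Iglc2 and Iglc3, and between Ighg2b and Ighg2c, is uncertain.

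The libraries were made with a 10x 5′ kit, which reads each RNA near its 5′ end, and the files give UMIs, each standing for 1 captured molecule. The Relapsed libraries held 7184045 and 9859508 UMIs, and the Cured libraries 9257402 and 10840397, over 16157 barcodes, of which 131 barcode sequences occurred in more than 1 library. B cells were taken as cells with UMIs of at least 3 of 13 B cell markers and of under 3 markers of any other lineage. No immunoglobulin gene was a marker. There were 2158 and 3301 B cells in the Relapsed libraries and 2783 and 3133 in the Cured libraries, with median depths of 1852 and 2029 against 2231 and 2341 UMIs. The 10 genes gave 183417 UMIs, 0.494% of all, and 93.6% of them were in B cells. Relapsed replicate 1 stood apart: 281 of its barcodes were dominated by haemoglobin RNA, against 23 to 29 in each other library, and its immunoglobulin and T cell receptor UMIs were split differently between constant and variable parts.

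That split is given first because it touches most comparisons between the groups. In B cells the heavy chain gave 4.94 and 1.44 constant UMIs per variable (Ighv) UMI in the Relapsed libraries, against 0.958 and 0.982 in the Cured libraries. The kappa chain gave 0.326 and 0.175 constant UMIs per Igkv UMI in the Relapsed libraries, against 0.145 and 0.152 in the Cured libraries. The lambda chain gave 3.75 and 2.86 constant UMIs per Iglv UMI in the Relapsed libraries, against 3.35 and 3.30 in the Cured libraries. Heavy and kappa ratios were thus higher in both Relapsed libraries, by far the most in replicate 1, while the lambda ratios of the groups overlapped. T cells, which use T cell receptor genes of the same layout, gave 1.07 and 0.546 alpha chain constant UMIs per variable UMI in the Relapsed libraries, against 0.357 and 0.401 in the Cured libraries. Their beta chain gave 0.667 and 0.379 in the Relapsed libraries, against 0.343 and 0.318 in the Cured libraries. Relapsed replicate 1 was therefore the highest library for all 5 chains.

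**Figure D1:**
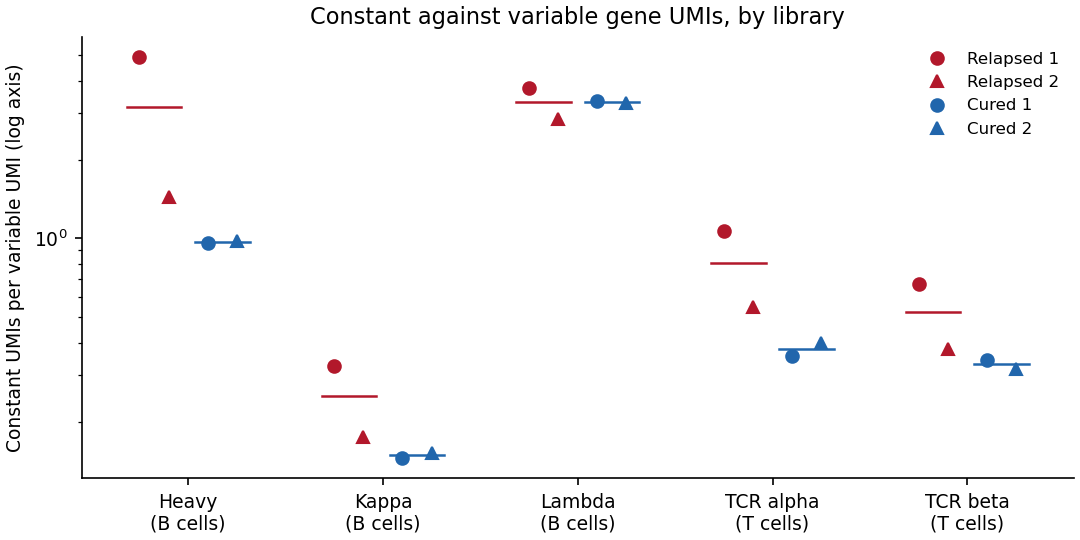
UMIs of constant genes per UMI of variable segments (log axis) for the heavy, kappa and lambda chains in B cells and for the T cell receptor chains in T cells; points are libraries, bars are group means. Relapsed replicate 1 is the highest library for each chain, with 4.94 heavy constant UMIs per variable UMI against 0.958 and 0.982 in the Cured libraries.

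For the heavy and kappa chains, variable UMIs lay on the other side from constant UMIs. Ighv segments summed to 578 and 1275 CPM (UMIs scaled so that all UMIs of the summed B cells of a library come to 1000000) in the Relapsed libraries, against 1567 and 1574 CPM in the Cured libraries. Constant and variable heavy chain UMIs summed to 3430.1 and 3109.9 CPM in the Relapsed libraries, against 3068 and 3119 CPM in the Cured libraries. For kappa the same sum was 9938 and 11341 CPM in the Relapsed libraries, against 12259 and 11798 CPM in the Cured libraries. The summed heavy chain levels of the groups overlapped, and the summed kappa levels were lower in both Relapsed libraries.

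IgM and IgD transcripts gave nearly all heavy chain constant UMIs of the B cells, and both lay higher in the Relapsed libraries without passing the test. Ighm, the constant part of IgM, was at 1827 and 1151 CPM in the Relapsed B cells, against 951 and 958 CPM in the Cured B cells. Ighd, the constant part of IgD, was at 1014 and 675 CPM in the Relapsed B cells, against 535 and 577 CPM in the Cured B cells. For both genes the groups did not overlap, and Relapsed replicate 1 was the highest library. By chance alone 2 against 2 libraries fail to overlap at a rate of 0.33, and the share of all genes doing so was not counted. Such separations, here and below, are description only. The log2 fold change (Relapsed over Cured) was 0.64 for Ighm (SE 0.18, adjusted p = 0.510, edgeR's quasi-likelihood test) and 0.61 for Ighd (SE 0.18, adjusted p = 0.510). Without Relapsed replicate 1 these fell to 0.28 and 0.29, and without Relapsed replicate 2 they were 0.93 and 0.86. edgeR called 0 of 10239 genes (0%) at an adjusted p below 0.05. Of these genes 910 had an unadjusted p under 0.05, and DESeq2 called 8 genes, none of them among the 10. With the replicate number as a block edgeR called 164 genes, Ighm (adjusted p = 0.00383) and Ighd (adjusted p = 0.0183) among them, though the numbers do not pair the libraries. Without a filter on low counts it called 190, again with Ighm (adjusted p = 0.00422) and Ighd (adjusted p = 0.0206). Leaving out Relapsed replicate 2 gave 2005 calls, with Ighm, Ighd and Igkc among them. Leaving out Relapsed replicate 1, Cured replicate 1 or Cured replicate 2 gave 7, 13 and 5 calls, with none of the 10. The shift in the ratio of constant to variable UMIs moves with this difference, and its part in it was not tested.

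**Figure D2:**
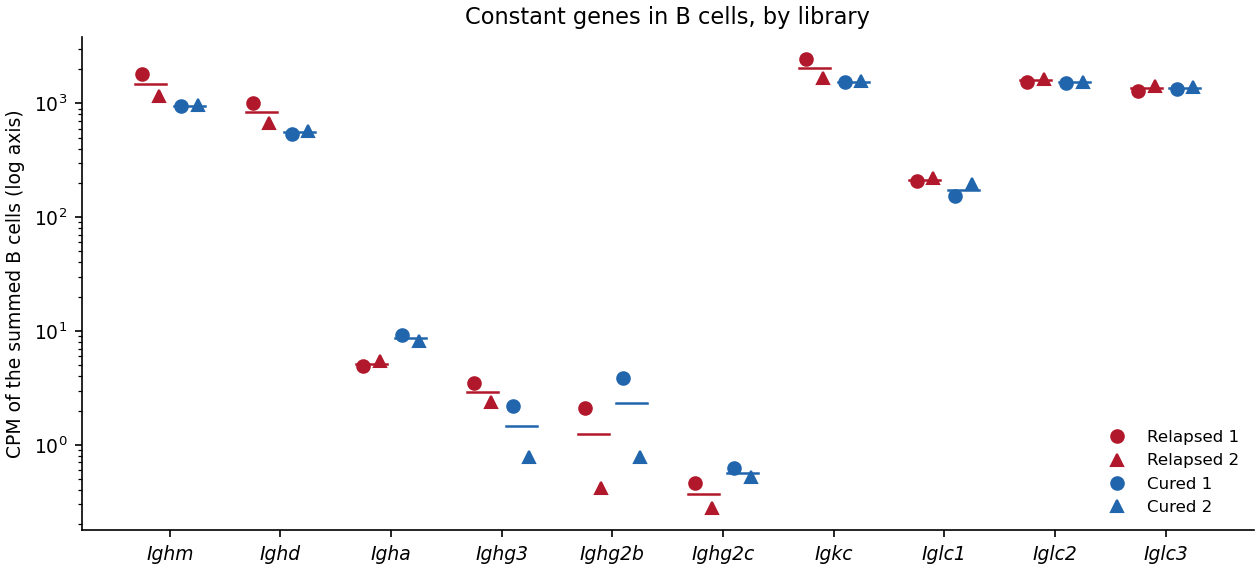
Level of each of the 10 constant genes in the summed B cells of each library (CPM, log axis), with Relapsed left of Cured; points are libraries and bars are group means. Ighm and Ighd sit higher in both Relapsed libraries (Ighm 1827 and 1151 CPM against 951 and 958 CPM), Iglc2 and Iglc3 are nearly level, and the switched classes lie below 10 CPM.

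The balance of the pair hardly changed. Ighm made up 64.3% and 63.0% of the Ighm and Ighd UMIs in the Relapsed B cells, against 64.0% and 62.4% in the Cured B cells (exact 95% intervals within 61.5% to 65.1%, counting error only). Most B cells carried both transcripts: 77.2% and 63.5% in the Relapsed libraries, against 56.4% and 61.7% in the Cured libraries. Ighm alone was found in 15.8% and 23.3% of Relapsed B cells, against 26.7% and 24.0% of Cured B cells. Ighd alone was found in 5.89% and 8.66% of Relapsed B cells, against 9.56% and 9.51% of Cured B cells. A median B cell held 3 Ighm and 2 Ighd UMIs in Relapsed replicate 1, so a missing UMI at this depth does not show a missing transcript. At an equal 1000 UMIs per cell, with 105 and 140 shallower Relapsed cells and 141 and 185 shallower Cured cells left out, an Ighd UMI was found in 63.7% and 49.2% of Relapsed B cells, against 39.8% and 43.7% of Cured B cells. Without thinning the shares were 83.1% and 72.2% in Relapsed, against 66.0% and 71.2% in Cured libraries. The difference of the thinned means was 14.7 percentage points (exact permutation test, two-sided p = 0.33, the smallest that 2 against 2 libraries can give). In T cells, which should lack the gene and had median depths of 3042 to 3521 UMIs, an Ighd UMI was found in 1.43% of 1399 cells.

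Ighm was found outside B cells in another proportion to Ighd. T cells held Ighm at 127 and 135 CPM in the Relapsed libraries, against 173 and 168 CPM in the Cured libraries, and 37.9% of them carried a UMI, against 86.8% of B cells. Ighd was at 2.44 and 6.98 CPM in the Relapsed T cells, against 3.85 and 3.66 CPM in the Cured T cells. T cells thus gave 738 Ighm and 20 Ighd UMIs in all, so that Ighm made up 97.4% of the pair (exact 95% interval 96.0% to 98.4%), whereas it made up 63.4% in B cells (63.0% to 63.8%). Monocytes gave 161 Ighm and 5 Ighd UMIs, 97.0% Ighm (93.1% to 99.0%), and neutrophils 132 and 14, 90.4% (84.4% to 94.7%). NK cells gave 105 and 24 UMIs, 81.4% (73.6% to 87.7%). These intervals pool the libraries and give counting error only. By library the neutrophil share was 94.1% and 76.5% in Relapsed, against 93.1% and 96.9% in Cured libraries. Relapsed replicate 2 gave 8 of the 14 neutrophil Ighd UMIs. Barcodes dominated by haemoglobin RNA gave 7 UMIs of each gene over 358 barcodes, a share whose interval (23.0% to 77.0%) covers that of B cells. The part of free RNA in these UMIs was not tested.

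**Figure D3:**
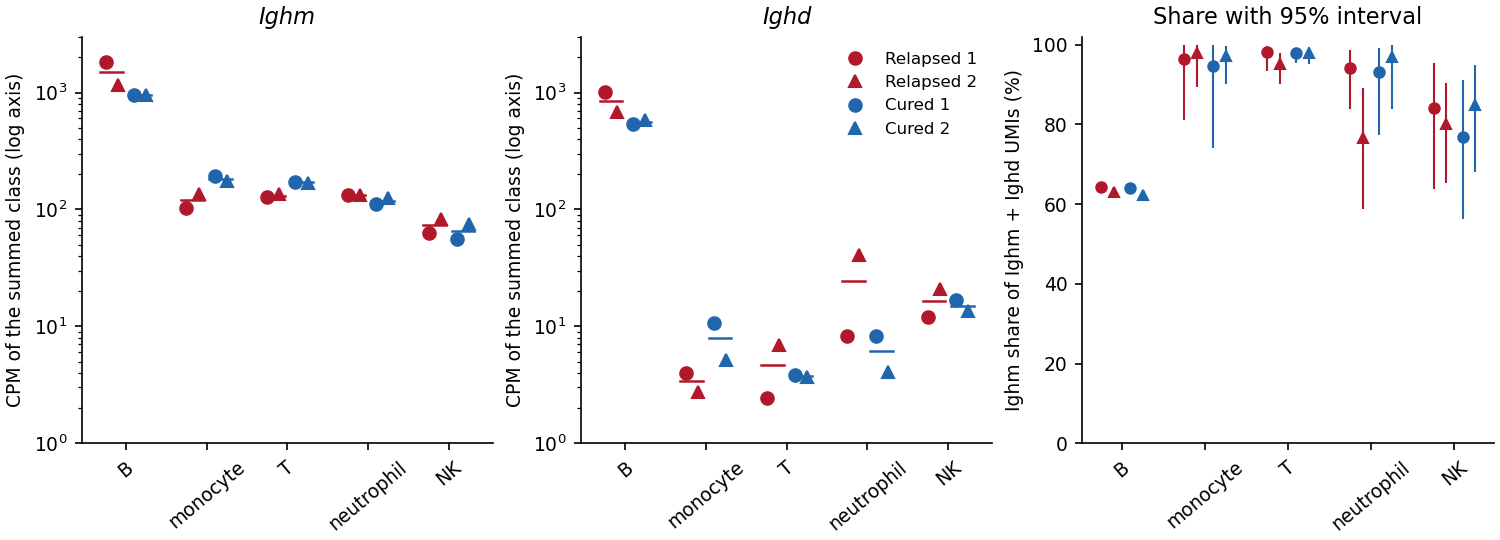
Ighm (left) and Ighd (middle) in the summed cells of each class (CPM, log axes) and the Ighm share of the Ighm and Ighd UMIs (right, percent, with exact 95% intervals); points are libraries, bars in the left and middle panels are group means. The B cell share sits between 62.4% and 64.3%, and every T cell and monocyte library is at 94.7% or higher.

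By level, with the tag-carrying cells described last left out, Ighm ran from B cells (951 to 1827 CPM over the 4 libraries) down to monocytes (104 to 194), T cells (127 to 173), neutrophils (111 to 132), NK cells (55.6 to 83.5) and haemoglobin-dominated barcodes (0 to 29.9). Monocytes, T cells and neutrophils overlapped in that order, and NK cells lay below all neutrophil libraries. Ighd ran from B cells (535 to 1014 CPM) to NK cells (12.0 to 20.9), neutrophils (4.04 to 40.6), haemoglobin-dominated barcodes (0 to 29.9), monocytes (2.76 to 10.8) and T cells (2.44 to 6.98), with every neighbour after B cells overlapping the next. Igkc in the other classes was at most 158 CPM, in the haemoglobin-dominated barcodes of Cured replicate 2, and at 13.4 to 30.0 CPM in T cells, against 1553 to 2445 CPM in B cells. T cells therefore held 6.59 Ighm UMIs per Igkc UMI, and B cells 0.664. Between the groups, the log2 fold change of Ighm in T cells was -0.34 (Relapsed over Cured, SE 0.17, adjusted p = 0.663, edgeR), in a fit that called 0 of 6992 genes (0%), 531 of them at an unadjusted p under 0.05, and DESeq2 also called 0.

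Across the 20 sums of 5 cell classes and 4 libraries, the genes most like Ighm in level were Nid1, Stac2, Snhg18, Spns2 and Rhbdf1 (Pearson r of log2(CPM + 1) from 0.945 to 0.947). Those most like Ighd were Ms4a1, Pigr, Spns2, Stac2 and Cd79a (0.942 to 0.945), of which Ms4a1 encodes the B cell antigen CD20 and Cd79a a signalling chain of the B cell receptor. Those most like Igkc were Srpk3, Pigr, Klhl14, Spns2 and Il9r (0.957 to 0.960). These coefficients describe sums that share 4 libraries and their depth, and rest mainly on B cells against all other classes. Ms4a1 and Cd79a are also among the markers that gated the B cells, so their likeness to Ighd is partly fixed by that gate.

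Class-switched transcripts were rare in the B cells. Igha, the constant part of IgA, was at 4.88 and 5.46 CPM in the Relapsed B cells, against 9.15 and 8.16 CPM in the Cured B cells. Both Relapsed libraries were lower, on 60 UMIs against 122 in the Cured libraries, and the fold change did not pass (log2 -0.72, SE 0.25, adjusted p = 0.530, edgeR; log2 -1.37 after thinning to 1000 UMIs a cell). These UMIs were scattered: 0.834% and 1.12% of Relapsed B cells held at least 1, against 2.08% and 1.98% of Cured B cells, and 1 of 1399 T cells did. Ighg3 was at 3.49 and 2.38 CPM in the Relapsed B cells, against 2.17 and 0.778 CPM in the Cured B cells (log2 0.99, SE 0.52, adjusted p = 0.574, edgeR). Its fold change was 1.86 on the log2 scale without Cured replicate 1 and 0.39 without Cured replicate 2. Ighg2b was at 2.09 and 0.420 CPM in the Relapsed B cells, against 3.88 and 0.778 CPM in the Cured B cells (log2 -1.03, SE 0.84, adjusted p = 0.687), with the groups overlapping, and without Cured replicate 1 its sign turned to 0.51. Ighg2c, which this strain carries in place of Ighg2a, had 4 UMIs in Relapsed and 8 in Cured B cells and did not pass the filter on low counts. Of the 10 genes, 9 were therefore tested and 0 called. None of the 4 switched genes had a UMI in NK cells, monocytes or haemoglobin-dominated barcodes, over 770 NK cells, 324 monocytes and 358 such barcodes.

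A B cell was called switched where the 4 gamma and alpha genes summed to at least 3 UMIs and the highest of them exceeded Ighm plus Ighd. This held for 2 and 1 Relapsed B cells (0.0927% and 0.0303%), against 7 and 0 Cured B cells (0.252%, and 0 of 3133, which allows a share of up to 0.118% by the exact 95% interval). Of the 7 cells of Cured replicate 1, 6 were led by Ighg2b with 3 to 5 UMIs and 1 by Ighg3 with 3. The Relapsed cells were led by Ighg2b (7 UMIs), by Ighg3 (4 UMIs), and by Ighg3 and Igha at 4 UMIs each. The difference of the group means was -0.06 percentage points (exact permutation test, two-sided p = 1), and the sign rests on Cured replicate 1, without which it was 0.06.

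A pair of plasma-like cells held most of the Ighg3 and Igha UMIs of their libraries. The 1 plasma-like cell of Relapsed replicate 2 gave 226 of the library's 244 Ighg3 UMIs, with 106 Igkc and 137 Jchain UMIs of 5456 in all. The 1 plasma-like cell of Cured replicate 1 gave 238 of the library's 301 Igha UMIs, with 247 Igkc and 424 Jchain UMIs of 19271. Jchain joins IgM and IgA into their secreted multimers. Neither cell had an Ighm or Ighd UMI. Both were outside the B cells compared above, so library totals of these genes follow 1 cell each. Single cells also weigh on B cell values of the gamma genes. In Relapsed replicate 1, 1 B cell gave 7 of 9 Ighg2b UMIs, and 1 gave 5 of 15 Ighg3 UMIs. The highest B cell of Cured replicate 1 gave 5 of 25 Ighg2b UMIs.

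The kappa gene Igkc gave the most UMIs of the 10 genes in the B cells of each library. It was at 2445 and 1686 CPM in the Relapsed B cells, against 1553 and 1556 CPM in the Cured B cells. Both Relapsed libraries were higher, with replicate 1 far above the rest, and the fold change did not pass (log2 0.41, SE 0.16, adjusted p = 0.530, edgeR); without Relapsed replicate 1 it was 0.13, and without Relapsed replicate 2 it was 0.65 and passed (adjusted p = 0.000708). As given above, Igkv segments went the other way, at 7494 and 9655 CPM in the Relapsed B cells, against 10706 and 10241 CPM in the Cured B cells.

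Of the lambda genes, Iglc2 was at 1537 and 1651 CPM in the Relapsed B cells, against 1513 and 1545 CPM in the Cured B cells (log2 0.06, SE 0.11, adjusted p = 0.854, edgeR). Iglc3 was at 1285 and 1418 CPM in the Relapsed B cells, against 1333 and 1396 CPM in the Cured B cells (log2 -0.01, SE 0.11, adjusted p = 0.982, edgeR). Iglc1 was at 207 and 220 CPM in the Relapsed B cells, against 154 and 195 CPM in the Cured B cells (log2 0.29, SE 0.16, adjusted p = 0.583, edgeR). Iglc2 and Iglc3 overlapped between the groups, and Iglc1 was higher in both Relapsed libraries without passing the test, with a log2 fold change of 0.14 without Cured replicate 1 and 0.46 without Cured replicate 2. Relapsed replicate 1, the highest library for Ighm, Ighd and Igkc, was not the highest for any lambda gene.

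Lambda constant UMIs outnumbered lambda variable UMIs in each library. All Iglv segments together were at 808 and 1149 CPM in the Relapsed B cells, against 895 and 951 CPM in the Cured B cells, about 1 Iglv UMI for every 2.86 to 3.75 lambda constant UMIs, whereas kappa had far more variable than constant UMIs. At an equal 1000 UMIs per cell, 77.1% and 67.9% of Relapsed B cells, against 64.5% and 66.1% of Cured B cells, carried both an Igkc and an Iglc UMI; without thinning these shares were 88.6% and 84.9%, against 82.7% and 84.7%. Among B cells assigned to kappa by their variable segments, 96.8% and 97.5% of Relapsed cells and 96.7% and 96.3% of Cured cells carried an Iglc UMI. In T cells, with deeper median counts, only 7.38% and 9.15% of Relapsed and 4.58% and 5.71% of Cured cells did.

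Assignment by constant genes left most B cells without a light chain call. A cell was called kappa or lambda where its Igkc and Iglc UMIs summed to at least 3 and at least 80% were of 1 kind. Neither kind reached 80% in 74.8% and 63.9% of Relapsed B cells, against 61.1% and 62.0% of Cured B cells. Lambda was called in 14.6% and 29.1% of Relapsed B cells, against 29.4% and 30.2% of Cured B cells, and kappa in 6.30% and 2.24% against 2.95% and 1.76%. Among assigned cells the lambda share was 69.8% and 92.8% in the Relapsed libraries, against 90.9% and 94.5% in the Cured libraries, a difference of -11.4 percentage points (exact permutation test, two-sided p = 0.667, with 0.33 the smallest possible). Without Relapsed replicate 1 it was 0.15 percentage points.

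Variable segments gave another split. With the same rule on Igkv and Iglv UMIs, added after the data were seen, kappa was called in 85.1% and 88.2% of Relapsed B cells, against 88.5% and 89.0% of Cured B cells. Lambda was called in 5.14% and 5.60% of Relapsed B cells, against 4.46% and 4.88% of Cured B cells. Among cells so assigned the Iglv share was 5.70% and 5.98% in the Relapsed libraries, against 4.79% and 5.20% in the Cured libraries, a difference of 0.84 percentage points (exact permutation test, two-sided p = 0.33, the smallest possible). The groups did not overlap, with an SD of 0.20 percentage points in Relapsed and 0.29 in Cured (n = 2 libraries each). Of all Fcer2a- or Cr2-carrying cells, a gate described below, 4.14% and 4.30% were Iglv-carrying in Relapsed libraries, against 4.27% and 4.45% in Cured libraries. Of all Vpreb3-carrying cells, the other gate, 7.84% and 7.60% were in Relapsed libraries, against 4.20% and 4.62% in Cured libraries. The share without cells holding a single tag UMI was not computed. Of the 3039 cells that constant genes called lambda, 2428 (79.9%) carried Igkv segments and 366 (12.0%) Iglv segments. Of the 347 called kappa, 303 (87.3%) carried Igkv segments.

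**Figure D4:**
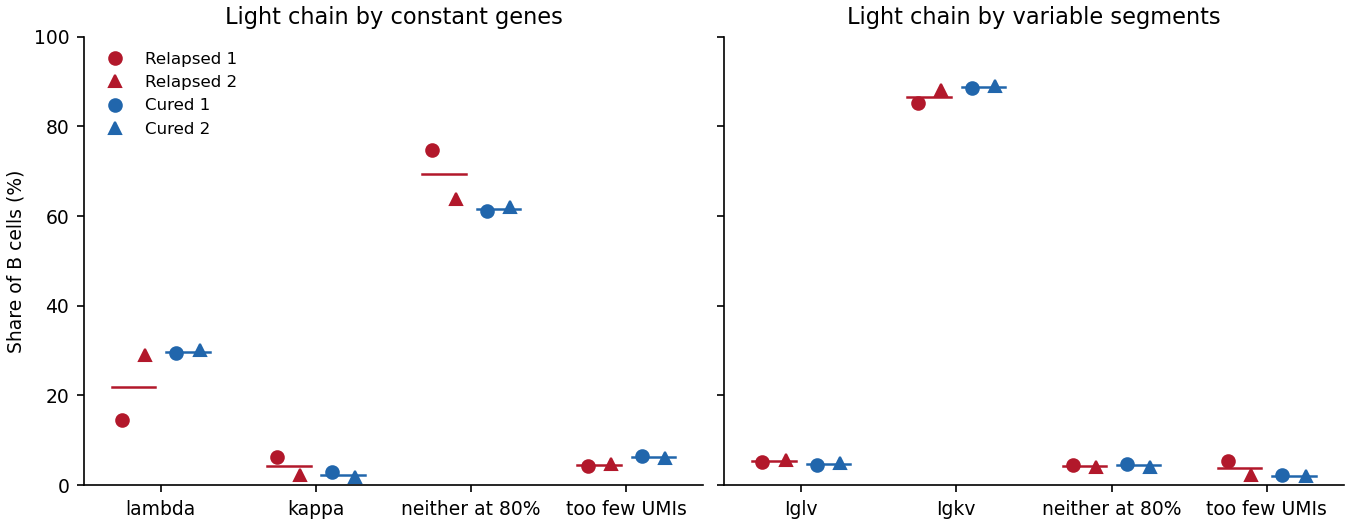
Share of B cells (percent) called lambda, called kappa, with neither kind at 80%, or left out for too few UMIs, by constant genes (left) and by variable segments (right); points are libraries, bars are group means. By constant genes neither kind reaches 80% in 61.1% to 74.8% of the B cells of a library, while by variable segments 85.1% to 89.0% are Igkv-carrying and 4.46% to 5.60% Iglv-carrying.

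Iglv-carrying B cells (111 and 185 in the Relapsed libraries, 124 and 153 in the Cured libraries) were then compared within each library with Igkv-carrying B cells, of which there were 9998. Igkc was at 400.1 and 427 CPM in Iglv-carrying Relapsed cells and 456 and 383 CPM in Iglv-carrying Cured cells, against 2600 and 1806 CPM in Igkv-carrying Relapsed cells and 1634 and 1644 CPM in Igkv-carrying Cured cells. It fell in all 4 libraries (log2 -2.16, SE 0.09, adjusted p = 3.17e-07, edgeR with the library as a block). This fit called 109 of 8395 genes (1.30%), 25 higher (0.298%) and 84 lower (1.00%) in Iglv-carrying cells. The Igkv and Iglv segments that chose the cells were not taken out of this fit. Calls among them are fixed by the rule and no finding, and they are part of these counts. The rule did not use constant genes, but it used variable segments that sit on the same transcripts.

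The lambda genes differed among themselves in this comparison. Iglc3 fell in Iglv-carrying cells, to 672 ± 41.6 CPM against 1425 ± 68.7 CPM in Igkv-carrying cells (SD, n = 4 libraries; log2 -1.09, SE 0.05, adjusted p = 5.96e-19, edgeR). Iglc2 fell less, to 1328 ± 31.6 CPM against 1584.5 ± 64.3 CPM (log2 -0.25, SE 0.04, adjusted p = 8.37e-05), and lost its call without the library block (adjusted p = 0.356). Both were lower in Iglv-carrying cells of all 4 libraries, although those cells carry a lambda variable segment. Iglc1 was at 741 and 432 CPM in Iglv-carrying Relapsed cells and 286 and 378 CPM in Iglv-carrying Cured cells, against 164 and 201 CPM in Igkv-carrying Relapsed cells and 145 and 180 CPM in Igkv-carrying Cured cells. It was higher in all 4 libraries, most in Relapsed replicate 1, and did not pass (log2 1.35, SE 0.28, adjusted p = 0.411). Without Relapsed replicate 1 it passed (log2 1.05, adjusted p = 1.69e-07), as it did with DESeq2 (adjusted p = 0.000246), after thinning to 1000 UMIs (adjusted p = 3.57e-07) and without the block (adjusted p = 0.00728).

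The heavy chain genes of Iglv-carrying cells stayed close to those of Igkv-carrying cells. Ighm was at 1304 ± 427 CPM in Iglv-carrying cells against 1206 ± 404 CPM in Igkv-carrying cells (SD, n = 4; log2 0.13, SE 0.05, adjusted p = 0.307, edgeR). Ighd was at 615 ± 218 CPM against 702 ± 216 CPM (log2 -0.20, SE 0.06, adjusted p = 0.111), lower in all 4 libraries, and passed without a filter on low counts (adjusted p = 0.0167). Igha rested on 8 and 166 UMIs (log2 -0.20, SE 0.60, adjusted p = 0.986). The remaining gamma genes did not pass the filter, with 12 Ighg3 UMIs in Iglv-carrying and 38 in Igkv-carrying cells, none of Ighg2b against 41, and none of Ighg2c against 12.

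**Figure D5:**
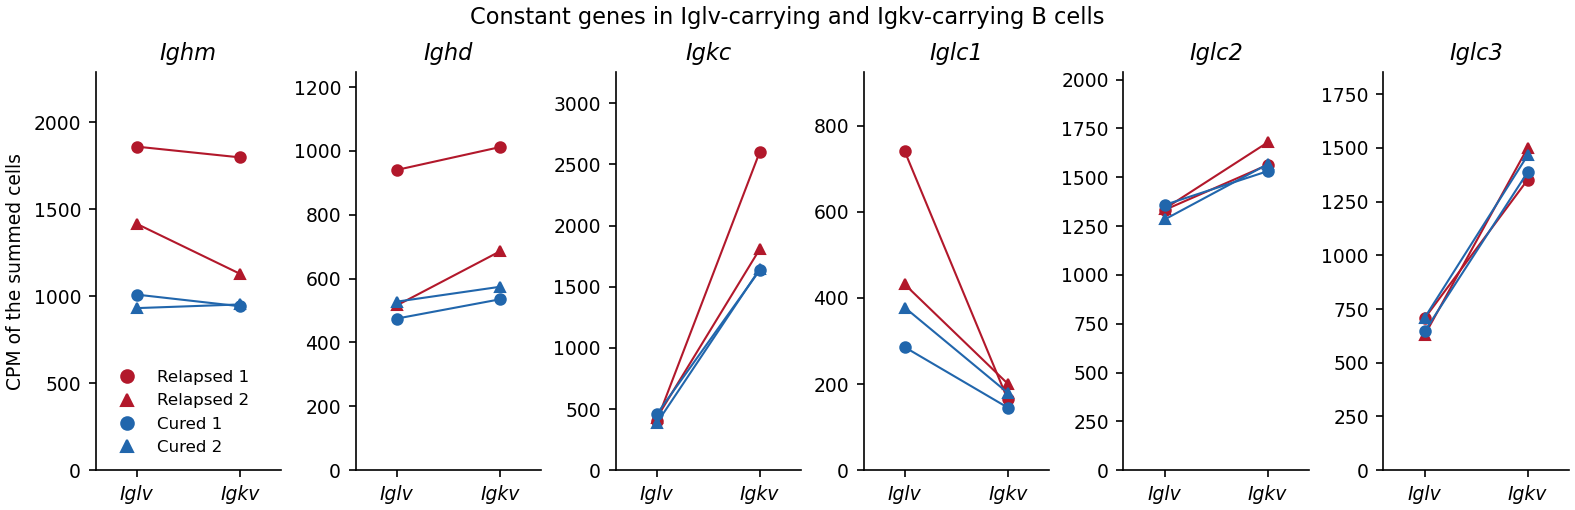
Level of 6 constant genes in the summed Iglv-carrying (left) and Igkv-carrying (right) B cells of each library (CPM, axes from 0); each line joins the values of 1 library. Igkc and Iglc3 are lower in Iglv-carrying cells of all 4 libraries, Iglc1 is higher, and Iglc2 differs by a log2 of -0.25.

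The shares of the lambda constant genes differed with the leading variable segment. A cell was taken as led by the segment that gave at least 80% of its Iglv UMIs. In the 355 cells led by Iglv1, which lies beside Iglc3 and Iglc1, Iglc1 made up 19.4% of 2117 lambda constant UMIs (exact 95% interval 17.7% to 21.2%, counting error only). In 60 cells led by Iglv2 it made up 8.99% (6.27% to 12.4%), and in 26 led by Iglv3 it made up 9.56% (5.19% to 15.8%). In Igkv-carrying cells it made up 5.45% (5.29% to 5.62%). Iglc3, which also lies beside Iglv1, had its lowest share in those cells, 23.5% (21.7% to 25.4%), against 43.6% (38.5% to 48.8%) in Iglv2 cells, 47.1% (38.4% to 55.8%) in Iglv3 cells and 44.9% (44.5% to 45.3%) in Igkv-carrying cells. Iglc2, which lies beside Iglv2 and Iglv3, made up 57.1% (54.9% to 59.2%) in Iglv1 cells, against 47.4% (42.2% to 52.7%) in Iglv2 cells, 43.4% (34.9% to 52.1%) in Iglv3 cells and 49.6% in Igkv-carrying cells. The order of the shares thus matched the neighbourhood on the chromosome for Iglc1 and not for Iglc2 or Iglc3. By library the Iglc1 share in Iglv1 cells was 30.8% and 19.1% in Relapsed, against 11.3% and 17.2% in Cured libraries, with Relapsed replicate 1 highest and Cured replicate 1 lowest. Grouped the other way, the 58 cells that constant genes called lambda with Iglc1 leading held 989 Iglv1, 166 Iglv2 and 76 Iglv3 UMIs beside 418 Igkv UMIs. The 1522 cells led by Iglc2 held 8456 Iglv UMIs beside 31447 Igkv UMIs, and the 1056 led by Iglc3 held 2613 beside 24129.

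Partner genes were described over 5 lists. In Iglv-carrying against Igkv-carrying cells, 1 of 7 tested genes of secretion and switching rose (median log2 0.15, against 0.00 over all genes): Mzb1, a chaperone of immunoglobulin assembly, at 494 against 391 CPM (log2 0.35, SE 0.08, adjusted p = 0.00474, edgeR). Of 16 receptor partners 1 fell (median log2 0.02), Cr2, the complement receptor CD21, at 88.2 against 132 CPM (log2 -0.52, adjusted p = 0.0459). Cr2 was also the 1 of 9 mature follicular genes that fell (median log2 -0.08), and of 4 tested transitional genes Ms4a4c fell (log2 -0.43, adjusted p = 0.00790) with none rising (median log2 0.15). None of 8 assembly and pre-B genes was called (median log2 0.00), and Vpreb3, which associates with nascent chains in B cell precursors, was at 324 against 212 CPM (log2 0.56, adjusted p = 0.346).

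In cells called lambda against cells called kappa by constant genes, 69 of 4255 genes were called (1.62%), 45 higher (1.06%) and 24 lower (0.564%) in lambda-called cells. Igkc, Iglc1, Iglc2 and Iglc3 chose these cells, and their differences are no finding. Ighm was at 1199 ± 378 CPM in lambda-called cells against 1293 ± 358 CPM in kappa-called cells (SD, n = 4 libraries; log2 -0.06, SE 0.08, adjusted p = 0.824, edgeR). Ighd was at 681 ± 214 CPM against 804 ± 161 CPM (log2 -0.19, SE 0.10, adjusted p = 0.442). Of 9 mature follicular genes 2 fell (median log2 -0.19, against -0.01 over all genes), among them Cd55, a complement regulator, at 311 against 451 CPM (log2 -0.46, adjusted p = 0.0449, edgeR). Of 5 secretion and switching, 16 receptor partner, 8 assembly and 4 transitional genes tested, 0 were called. As given above, 79.9% of the lambda-called cells carried Igkv segments.

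Recently formed B cells were to be set apart by Cd93, but 2 and 4 B cells of the Relapsed libraries and none of the Cured libraries met that rule, so it could not be fitted. In its place, chosen after the data were seen, B cells with Vpreb3 and without Fcer2a (CD23) or Cr2 were compared with cells carrying Fcer2a or Cr2 and no Vpreb3. There were 268 and 434 such cells in the Relapsed libraries and 333 and 346 in the Cured libraries, or 12.4% and 13.1% against 12.0% and 11.0% of B cells. Ighm was at 1279 ± 482 CPM in Vpreb3-carrying cells against 1186 ± 351 CPM in Fcer2a- or Cr2-carrying cells (SD, n = 4; log2 0.11, SE 0.04, adjusted p = 0.188, edgeR). Ighd was at 651 ± 179 CPM against 729.5 ± 221 CPM (log2 -0.13, SE 0.05, adjusted p = 0.237). Neither passed in a fit that called 76 of 7411 genes (1.03%), 48 higher (0.648%) and 28 lower (0.378%) in Vpreb3-carrying cells, and Igkc, Iglc2 and Iglc3 differed by -0.04, 0.02 and -0.04 on the log2 scale.

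Iglc1 was the 1 of 6 tested constant genes that rose in Vpreb3-carrying cells. It was at 277 and 283 CPM in Vpreb3-carrying Relapsed cells and 176 and 231 CPM in Vpreb3-carrying Cured cells, against 172 and 216 CPM in Fcer2a- or Cr2-carrying Relapsed cells and 136 and 185 CPM in such Cured cells (log2 0.46, SE 0.07, adjusted p = 3.70e-07, edgeR). Cells with a single UMI of a leukaemia tag gene (Cdkn2a, with 282 UMIs over all barcodes, or the added GFP sequence, with 23; the added BCR-ABL sequence had 0) made up 3.36% and 3.46% of the Vpreb3-carrying Relapsed cells and 0% and 0.867% of the Vpreb3-carrying Cured cells, against at most 0.230% of Fcer2a- or Cr2-carrying cells. Without cells holding any tag UMI, Iglc1 was at 213 and 217 CPM in Vpreb3-carrying Relapsed cells and 176 and 223 CPM in Vpreb3-carrying Cured cells, against 173 and 216 CPM and 136 and 185 CPM. The fold change was then 0.25 (adjusted p = 0.0640) and no longer passed, and it also lost its call after thinning to 1000 UMIs (log2 0.34, adjusted p = 0.414) and without the library block (adjusted p = 1.00).

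Around these genes, 3 of 9 mature follicular genes fell in Vpreb3-carrying cells (median log2 -0.17, against 0.01 over all genes), of which Fcer2a and Cr2 chose the cells and Fcmr, the Fc receptor for IgM, fell to 729 against 919 CPM (log2 -0.32, adjusted p = 3.07e-05). Of 4 tested transitional genes 2 rose (median log2 0.19), Vpreb3, which chose the cells, and Ly6d, a surface antigen of the B lineage, at 2359 against 2065 CPM (log2 0.21, adjusted p = 9.54e-08), while Ms4a4c fell (log2 -0.25, adjusted p = 0.0304). Ly6d and Fcmr are also among the 13 markers that gated the B cells. Of 16 receptor partners Cr2 and Fcmr fell (median log2 -0.01), of 8 assembly genes the gate gene Vpreb3 alone rose (median log2 0.01), and of 7 secretion genes 0 were called (median log2 0.03), with Mzb1 at a log2 of 0.20 (adjusted p = 0.0541).

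Between Relapsed and Cured B cells, 0 of 9 tested genes of secretion and switching were called (median log2 -0.13, against 0.00 over all genes), 0 of 16 receptor partners (0.01), 0 of 8 assembly and pre-B genes (0.20), 0 of 6 transitional genes (0.18) and 0 of 9 mature follicular genes (-0.07). The smallest p of each list belonged to Irf4 (log2 0.28, adjusted p = 0.642, edgeR), Pik3ap1 (0.72, adjusted p = 0.510), Pax5 (0.68, adjusted p = 0.519), Myb (1.46, adjusted p = 0.510) and Ighd. Irf4 is a regulator of plasma cell formation, Pax5 the regulator of B cell identity, and Myb acts in precursor cells.

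The class effects were set against each other between the groups by an interaction term. No member passed in any of the 3 within-library comparisons. For lambda against kappa 0 of 4255 genes passed, and for Iglv-carrying against Igkv-carrying cells 0 of 8395, so there the absence covers all genes. The smallest adjusted p was that of Iglc3 in Vpreb3-carrying cells, whose log2 effect differed by -0.24 (Relapsed minus Cured, SE 0.07, adjusted p = 0.0726, edgeR), where 31 of 7411 genes were called.

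The 82 B cells with at least 2 UMIs of leukaemia tag genes, kept apart from the B cells above, had another pattern. Most tag UMIs over all barcodes were of Cdkn2a, a gene of the mouse itself (282, against 23 of GFP and 0 of BCR-ABL). Whether these cells were leukaemia cells was not tested. Ighd was at 211 and 185 CPM in the Relapsed and 0 and 164 CPM in the Cured libraries, below every B cell sum. Ighm made up 91.2% of the pair (exact 95% interval 89.2% to 92.9%, counting error only). Iglc1 was at 1245 and 940.2 CPM in the Relapsed and 985 and 821 CPM in the Cured libraries, above every B cell sum, and 93.9% of these cells held an Iglc1 UMI against 26.9% of B cells. Their median depths were 5228 and 5012 UMIs in the Relapsed libraries and 5583.5 and 5550.0 UMIs in the Cured libraries, more than those of the B cells, and Cured replicate 1 had 2 such cells.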

How the data were processed

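RNA of single blood leukocytes was captured in droplets and sequenced (10x 5′ kit). The deposited values are raw UMI counts per gene and barcode, made by the authors with Cell Ranger 3.1.0 on mm10 (per the submitters' processing notes); the annotation release and the handling of multimapping reads are not given in the sources used here.

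Barcodes with over 50% haemoglobin UMIs formed a class of their own; other cells needed 200 genes and at most 10% mitochondrial UMIs, which left out 365. Cells with at least 3 markers of more than 1 lineage (369) were left out as mixed, and no doublet caller was run. B cells with at least 2 leukaemia tag UMIs (82) were kept apart. UMIs were summed per library and class and tested with edgeR 4.0.16 (TMM, filterByExpr, quasi-likelihood, robust) on R 4.3.3, Benjamini-Hochberg over all genes, threshold 0.05; DESeq2 1.42.0 was an alternative. Comparisons within libraries used the library as a block. Shares were tested by exact permutation (SciPy 1.17.1). Only the edgeR fits of B cells between the groups and of the Vpreb3 gates were tried on simulated data. SE is the fold change over the root of the F statistic; CPM was computed here from the deposited counts. With 2 pools a group, p-values between Relapsed and Cured measure the spread between pools only in part. In the within-library fits the block removes the level of each library. What is left is how the class difference varies over the libraries, so those p-values do not measure how levels vary between pools or mice. Both kinds of fit rest largely on a dispersion shared across genes. The median prior degrees of freedom were 270 for the Vpreb3 gates, 30.6 for lambda against kappa and 32.6 for Iglv against Igkv. For Relapsed against Cured they were 7.70 in B cells and 17.7 in T cells.

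The genes and lists were chosen with earlier results of these data known. Named genes are the 10 constant genes, the 5 genes most like Ighm, Ighd and Igkc, and the called or leading members of each list. The Vpreb3 and variable-segment rules, the T cell fit and the tag-free alternative were added after seeing the data. Alternatives were size factors, filters, gates, thinning to 1000 or 500 UMIs, blocks and each library left out. A called member of the mature follicular list is not reported here.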

Additional observations from a re-analysis of the deposited data

Results flagged for a closer look

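Within-library differences over the 4 libraries were checked for a library far from the other 3; 12 gene and comparison pairs were checked, and chance flags about 1 in 20. The log2 ratio of Iglc1 in Iglv-carrying over Igkv-carrying B cells was 2.17 in Relapsed replicate 1, against 1.10 in Relapsed replicate 2 and 0.97 and 1.07 in the Cured libraries. The log2 ratio of Ighd in Vpreb3-carrying over Fcer2a- or Cr2-carrying B cells was -0.0016 in Cured replicate 1, against -0.20 in both Relapsed libraries and -0.22 in Cured replicate 2.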

How the results depend on the processing

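Over all fits, 376 results for single constant genes were recomputed under alternatives, of which 349 kept direction and side of the threshold. Among the 349 are 12 runs each of Igkc, Iglc2 and Iglc3 and 11 of Iglc1 in lambda against kappa by constant genes. Those genes chose the cells, so that agreement was fixed by the rule. Calls between Relapsed and Cured B cells, 0 in the fit reported, numbered 8 with DESeq2, 190 without a filter, 164 with the replicate block and 5 to 2005 with a library left out. Same-numbered libraries deviated together with a correlation of 0.05 across 10239 genes, so the numbers do not pair them. In T cells the calls, also 0, numbered 28 without a filter, 4 after thinning, 31 with the replicate block and 3 to 409 with a library left out. Vpreb3 calls, 76, numbered 18 with DESeq2, 14 after thinning, 3 without the library block and 37 to 65 with a library left out. Calls between lambda and kappa by constant genes, 69, numbered 41 with RLE size factors, 206 without a filter, 11 after thinning, 8 without the library block and 26 to 129 with a library left out. Iglv calls, 109, numbered 72 without the library block and 96 to 130 with a library left out. Between the groups, signs turned with a library left out for Ighg2b, whose log2 fold change ran from -2.35 to 0.51, and Iglc3, from -0.0929 to 0.0658; without tag UMIs Iglc3 was at 0.0030. In the Vpreb3 comparison they turned with a library left out for Iglc2 (-0.0081 to 0.0422), Igkc (-0.0607 to 0.0011) and Iglc3 (-0.0966 to 0.0022), and for Iglc2 without a filter (-0.0199) and thinned (-0.0439). They also turned for Ighm in lambda against kappa without a filter (0.11) and for Igha in Iglv-carrying cells with a library left out (-1.06 to 0.30). The lambda share difference by constant genes ran from -22.9 to 0.15 percentage points with a library left out, the Ighd share difference from 7.46 to 22.0 and the Iglv share difference from 0.64 to 1.04. The switched share difference ran from -0.19 to 0.0615 with a library left out, was 0.0298 after thinning, and was 0 at 10 UMIs, where no cell was left. The causes were not tested. The planned Cd93 comparison was not run for want of cells. The limit throughout is 2 pools a group and a few UMIs per gene and cell.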
